A study of Mus musculus with 42 samples.

Results

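The daily rhythm of gene expression was described in the kidneys of male wild-type C57BL/6 mice fed a high-fat diet that contained 3% EpSA. EpSA is epoxystearic acid, an oxidised fatty acid that forms in heated frying oil. The mice were 6 weeks old when feeding began, ate the diet for 14 weeks and lived under 12 h of light and 12 h of darkness. Kidneys were taken at zeitgeber time (ZT, hours after lights on) 1, 5, 9, 13, 17, 21 and 25, where ZT 25 is 1 h into the next day. The labels list 21 EpSA libraries, 3 per time, among 42 in all. The other 21 come from mice of the same sex, strain, genotype, age, housing and feeding time that ate standard chow. Mice on a high-fat diet that lacked EpSA are not analysed here, and the effects of fat and of EpSA cannot be told apart where the EpSA group differs from chow. The deposited values are 1 mean per gene, diet and time, read as FPKM (fragments per length of transcript, scaled to the fragments of the library), and each mean over 3 mice is called a pool. Of 56691 genes in the EpSA table, 13417 had a mean of at least 1 FPKM over the 7 pools, and these genes were tested for a 24 h rhythm.

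The circadian clock of mammalian cells is a loop of transcription factors. BMAL1, encoded by Arntl, pairs with CLOCK or NPAS2 and activates genes that carry E-box sequences, including the Per and Cry repressors, which then inhibit the pair. A second loop of REV-ERB repressors and ROR activators acts on Arntl, and output factors such as DBP, TEF, HLF and NFIL3 carry the rhythm to other genes. In the kidney, clock-driven genes are known to take part in salt and water handling, solute transport and metabolism. Mice feed mainly in the dark phase.

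The pools carried the transcripts of kidney tubules throughout: the summed level of 39 proximal tubule transport genes lay between 3922 and 4315 FPKM. Pool medians of log2(FPKM + 1) over the tested genes lay between -0.06 (ZT 13) and 0.03 (ZT 21) around their own middle. The ZT 9 pool stood apart in 1 respect. The summed level of 13 adrenal genes was 158 FPKM there and between 20.6 and 25.0 in the other 6 pools. Most of the sum in those 6 pools came from Fdx1, at 18.9 to 23.5 FPKM there and 23.8 at ZT 9. Among the other adrenal genes Cyp21a1, a steroid hydroxylase of the adrenal cortex, was at 27.3 FPKM at ZT 9 and at or below 0.043 elsewhere. Chga, a granule protein of chromaffin cells, was at 15.6 at ZT 9 and at or below 0.063 elsewhere, and Th, Pnmt and Cyp11b2 were listed at 0 in at least 5 of the other pools. Fat tissue markers varied as well. The 13 markers summed to 302, 441, 165, 96.6, 301, 183 and 209.5 FPKM from ZT 1 to ZT 25, with the lowest level at ZT 13 and the highest at ZT 5.

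**Figure D1:**
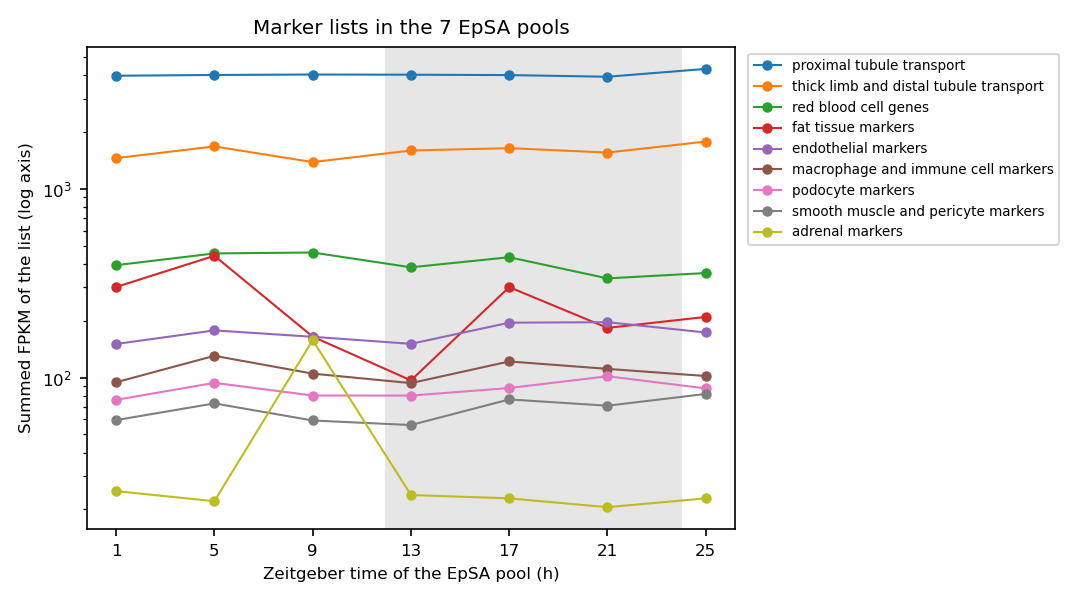
Summed FPKM (log axis) of 9 marker lists in the 7 EpSA pools against zeitgeber time in hours, with the dark phase shaded and 1 point per pool. Adrenal genes reach 158 FPKM at ZT 9 and lie between 20.6 and 25.0 elsewhere, where Fdx1 makes up most of the sum. Fat markers range from 96.6 to 441, and proximal tubule genes stay between 3922 and 4315.

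A cosine of 24 h was fitted to log2(FPKM + 1) of each gene and tested with limma's moderated F test, and its amplitude is the distance from the middle of the curve to its peak on that log2 scale. Each p-value measures the spread of 7 pools round a curve and not the spread between mice, which the means do not show. At an adjusted p under 0.05 (Benjamini-Hochberg over 13417 genes) 7 genes were called, 0.0522% of those tested: the clock genes Dbp, Arntl and Npas2, and Slc16a1, Ypel2, Tfec and Snord32a. At an unadjusted p under 0.05 there were 1146 genes, 8.54% of those tested, where evenly spread p-values would give 5%. The genes of this wider set are called nominal below. It was not corrected for the number of genes, and it fell to 560 genes without the ZT 9 pool, of which 438 were in the full set. With any 1 time left out the adjusted test still called Arntl and Dbp, and these alone without ZT 1, 9, 13 or 25. Npas2, Tfec and Ypel2 were not called with pool medians set equal, and a plain F test per gene, which shares no variance between genes, called 0. Cosines of 20 h and 28 h gave 950 and 1274 genes at an unadjusted p under 0.05.

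Peaks of the nominal genes lay most often at the end of the night. The window from ZT 19 to 23 held 415 of them, 3.09% of all tested genes, and the window from ZT 7 to 11 held 248 (1.85%). Next came ZT 23 to 3 with 187 (1.39%), ZT 3 to 7 with 122 (0.909%), ZT 11 to 15 with 108 (0.805%) and ZT 15 to 19 with 66 (0.492%). The fitted peaks of all 13417 tested genes were uneven too, with 27.0% between ZT 19 and 23 and 8.21% between ZT 11 and 15. The late-night window thus held 36.2% of nominal genes against 27.0% of all, and the window from ZT 15 to 19 held 5.76% against 10.4%. Scaling decided which window was fullest. With the median of every pool set equal, the afternoon window from ZT 7 to 11 rose to 374 nominal genes and the late-night window dropped to 277. Without ZT 9, 560 genes were nominal, and the afternoon window held 81 of them (14.5%) and the late-night window 150 (26.8%). That late-night share was near the 27.0% of all tested genes in the fit with ZT 9. The light phase held the peaks of 45.8% of nominal genes and of 50.5% of all tested genes, and 54.4% of nominal genes with pool medians set equal.

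**Figure D2:**
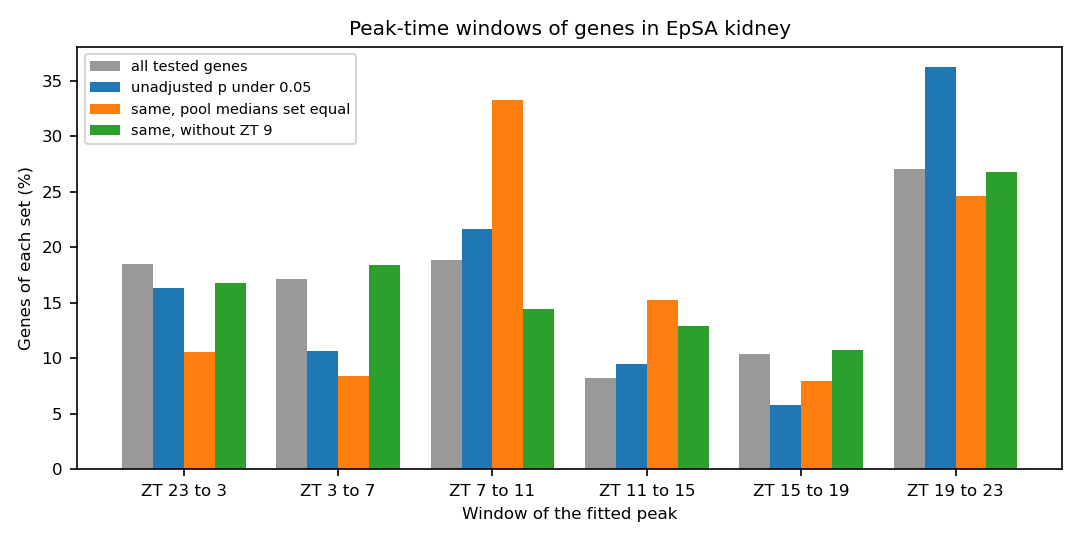
Share of genes (%) whose fitted peak lies in each window of 4 h, for all 13417 tested genes (grey), the 1146 genes at an unadjusted p under 0.05 (blue), the same criterion with pool medians set equal (orange) and without the ZT 9 pool (green). The late-night window is fullest in blue at 36.2%, and the afternoon window is fullest in orange at 33.3%.

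Most of these oscillations were small. The median amplitude was 0.220 on the log2 scale for nominal genes (quartiles 0.174 and 0.302) and 0.0883 for all tested genes, a gap that the selection by p builds in. Of the nominal genes 77 had an amplitude of at least 0.5 and 7 of at least 1. Median amplitudes were alike across windows, from 0.208 between ZT 19 and 23 to 0.265 between ZT 15 and 19. In 1073 nominal genes, 93.6% of them, the highest pool lay within 4 h of the fitted peak. The fit to the same pools and the selection by p largely build in that share. A gene of perfect daily repeat would have equal values at ZT 1 and ZT 25. The median absolute gap between those pools was 0.129 on the log2 scale in nominal genes and 0.125 in all tested genes. In 233 of the 1146 the gap was larger than the amplitude itself.

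**Figure D3:**
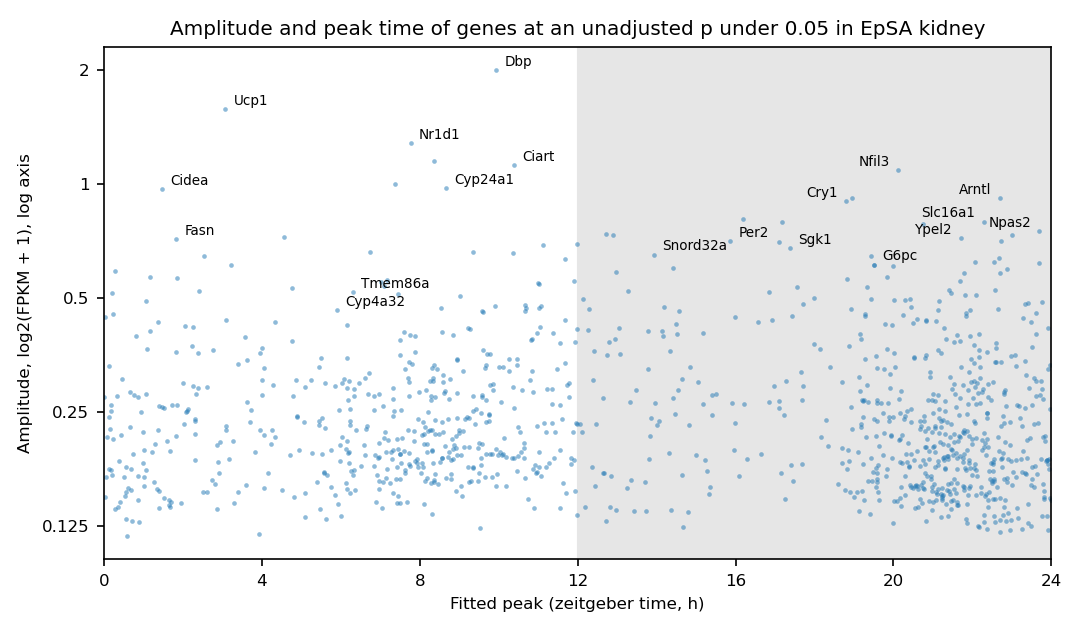
Amplitude on the log2(FPKM + 1) scale (log axis) against fitted peak in hours for the 1146 genes at an unadjusted p under 0.05, 1 point per gene, with the dark phase shaded and some named genes labelled. Dbp stands highest at 2.00, and most points lie below 0.5.

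The activators of the clock were highest late at night. Arntl had 2.81, 1.21, 0.340, 0.400, 1.45, 3.25 and 3.19 FPKM from ZT 1 to ZT 25. It was low in the pools at ZT 9 and 13 and high in those at ZT 21, 25 and 1, with an amplitude of 0.92 ± 0.04 (SE of the fit) and a peak at ZT 22.7 ± 0.18 h (limma, adjusted p = 0.00151). Npas2, whose protein can take the place of CLOCK, had 2.16, 0.927, 0.230, 0.230, 0.463, 1.96 and 1.86 FPKM over the same times. Its trough spanned ZT 9 and 13, and its peak fell at ZT 23.7 ± 0.37 h with an amplitude of 0.75 ± 0.07 (limma, adjusted p = 0.0435). Clock peaked close to them, at ZT 22.0, with a smaller amplitude of 0.30 ± 0.05, and it was nominal only (unadjusted p = 0.00142, adjusted p = 0.383 by limma).

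Of 8 clock repressors 7 were tested, Bhlhe41 being below the floor of 1 FPKM, and 5 were nominal. Their peaks followed one another from late afternoon to night. Ciart, a repressor of the BMAL1 complex, came first: it had 0.470, 2.49, 6.58, 5.32, 1.30, 1.09 and 0.960 FPKM and a peak at ZT 10.4 ± 0.46 h. Its pools at ZT 9 and 13 stood well above the other 5, and its amplitude was 1.12 ± 0.13 (limma, adjusted p = 0.175). Per3 and Per1 peaked at ZT 12.0 and 12.1. Per3 lay between 2.05 (ZT 1) and 8.19 FPKM (ZT 13) (amplitude 0.70 ± 0.08), and Per1 from 3.8 at ZT 5 to 9.65 at ZT 13 (amplitude 0.50 ± 0.10). Per2 reached its peak later, at ZT 15.9 ± 1.1 h, with 4.31, 7.55, 9.97, 17.2, 19.6, 13.5 and 13.0 FPKM. Its ZT 25 pool was 1.40 higher on the log2 scale than its ZT 1 pool, although both were taken at the same hour of the day. Cry1 showed such a gap too (1.34), with 1.58 FPKM at ZT 1, 6.44 at ZT 21 and 5.51 at ZT 25, and a peak at ZT 18.8 ± 0.79 h. Cry2 (amplitude 0.20 ± 0.11, unadjusted p = 0.262 by limma) and Bhlhe40 (0.21 ± 0.09, unadjusted p = 0.117) did not reach the nominal threshold.

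The REV-ERB receptors, which repress Arntl, peaked in the afternoon opposite to it. Nr1d1 had 10.5, 15.4, 18.7, 6.94, 4.33, 1.97 and 3.04 FPKM, with a peak at ZT 7.8 ± 0.68 h and an amplitude of 1.28 ± 0.26. Its 3 highest pools were the first 3 of the series, and its ZT 25 pool lay 1.51 below its ZT 1 pool on the log2 scale. Nr1d2 peaked at ZT 10.4 ± 0.57 h and lay between 11.2 (ZT 25) and 28.9 FPKM (ZT 13) (amplitude 0.66 ± 0.10). Both were nominal, with limma's adjusted p at 0.468 and 0.290. Rora, which encodes an activator that competes with them, stayed between 3.86 and 4.84 FPKM (unadjusted p = 0.753 by limma).

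Among the output factors Dbp had the largest amplitude of all nominal genes. It had 2.38, 15.2, 38.9, 21.8, 6.00, 1.95 and 2.36 FPKM, a 20-fold range from ZT 21 to ZT 9. It was highest at ZT 9, and the pools at ZT 1 and ZT 25 were nearly equal. The fit gave an amplitude of 2.00 ± 0.09 and a peak at ZT 9.9 ± 0.17 h (limma, adjusted p = 0.00151). Tef, of the same family of bZIP activators, peaked at ZT 10.7 ± 0.41 h between 27.2 and 52.8 FPKM (amplitude 0.48 ± 0.05, adjusted p = 0.1 by limma). Hlf, the third of them, had an amplitude of 0.18 ± 0.07 and was not nominal (unadjusted p = 0.0735). Nfil3, a repressor that binds the same sites, stood opposite, with 5.77, 1.90, 2.31, 4.15, 8.07, 12.0 and 8.97 FPKM. It was lowest at ZT 5 and highest at ZT 21, with a peak at ZT 20.1 ± 0.42 h and an amplitude of 1.09 ± 0.13 (limma, adjusted p = 0.209).

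**Figure D4:**
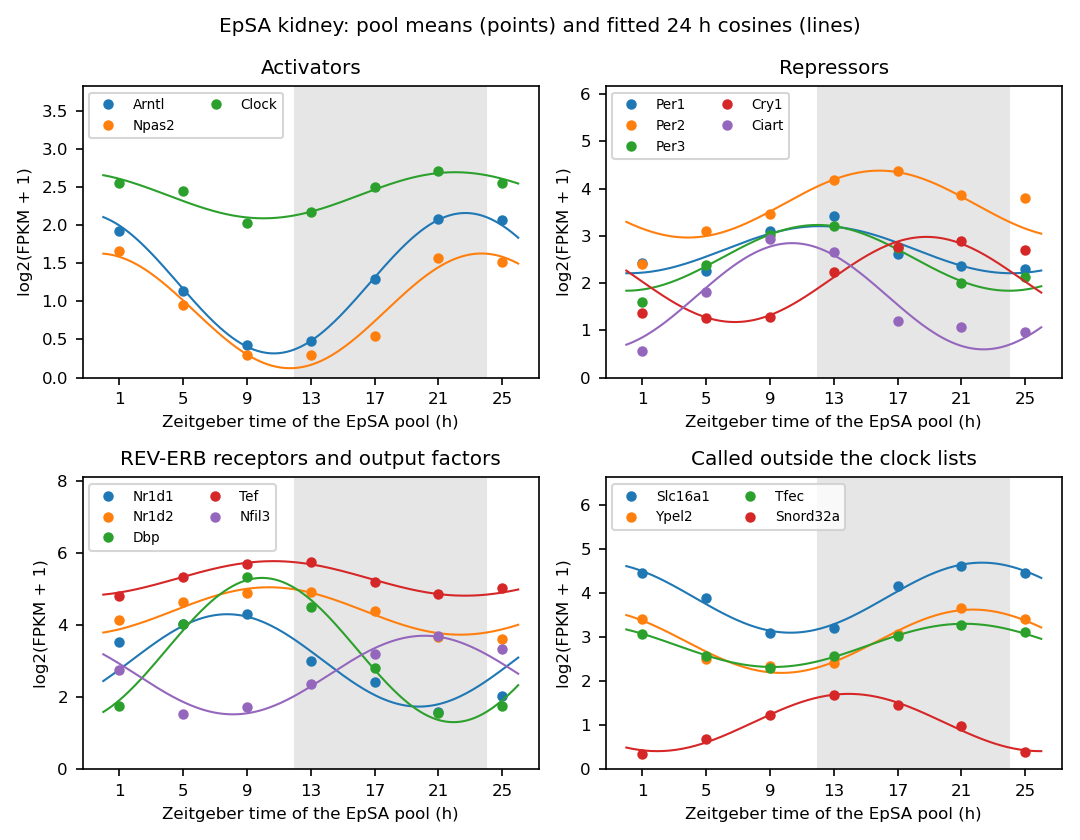
log2(FPKM + 1) of 17 genes in the 7 EpSA pools (points) against zeitgeber time in hours, with the fitted 24 h cosines (lines) and the dark phase shaded. Activators and the genes Slc16a1, Ypel2 and Tfec are lowest at ZT 9 or 13, whereas Dbp, Ciart and Nr1d1 are highest at ZT 9.

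Promoters of 6 genes named here (Arntl called, the others nominal only) are shown as examples with a clock motif near the annotated start. They are RefSeq sequences of GRCm38.p6 from 250 bases before to 50 after the start, written 5′ to 3′ on the strand of the gene, with the motif in capitals. Arntl (chr7:113207261-113207560, plus strand), Nfil3 (chr13:52980990-52981289, minus strand) and Leo1 (chr9:75441274-75441573, plus strand), which peaked between ZT 20 and 23, hold the ROR element ANTAGGTCA, bound by REV-ERB and ROR receptors. So does Cdkn2c (chr4:109665323-109665622, minus strand), which peaked in the light phase at ZT 6.7 and also holds 1 E-box. In Nfil3 and Cdkn2c the ROR element lies on the opposite strand and is printed as its reverse complement. Ciart (chr3:95882179-95882478, minus strand) holds 3 copies of the E-box CACGTG, and Per3 (chr4:151044616-151044915, minus strand) 2 copies of the D-box TTANGTAA, bound by DBP, TEF, HLF and NFIL3. Other genes named here hold these motifs at various phases and are not printed. An E-box lies in Slc16a1 (peak ZT 22.3), Cluh (23.3), Sgk1 (17.4), Cry1 (18.8), Per1 (12.1) and Tef (10.7), and a D-box in G6pc (19.5) and Cldn10 (0.93).
Arntl: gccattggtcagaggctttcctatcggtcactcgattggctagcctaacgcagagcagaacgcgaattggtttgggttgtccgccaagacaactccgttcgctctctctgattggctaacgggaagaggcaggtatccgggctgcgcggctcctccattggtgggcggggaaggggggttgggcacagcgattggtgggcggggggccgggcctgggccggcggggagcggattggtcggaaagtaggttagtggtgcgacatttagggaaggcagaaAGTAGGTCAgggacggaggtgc
Nfil3: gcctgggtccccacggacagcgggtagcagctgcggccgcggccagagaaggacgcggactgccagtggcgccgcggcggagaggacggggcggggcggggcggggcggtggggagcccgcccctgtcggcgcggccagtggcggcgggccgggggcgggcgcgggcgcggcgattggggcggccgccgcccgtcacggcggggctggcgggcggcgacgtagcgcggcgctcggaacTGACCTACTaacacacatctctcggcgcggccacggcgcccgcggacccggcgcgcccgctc
Leo1: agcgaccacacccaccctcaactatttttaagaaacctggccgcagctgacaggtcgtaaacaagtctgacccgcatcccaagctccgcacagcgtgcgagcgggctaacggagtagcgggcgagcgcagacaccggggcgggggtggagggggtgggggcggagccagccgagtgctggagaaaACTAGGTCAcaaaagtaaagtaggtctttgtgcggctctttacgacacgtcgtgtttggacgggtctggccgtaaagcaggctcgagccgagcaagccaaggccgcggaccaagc
Cdkn2c: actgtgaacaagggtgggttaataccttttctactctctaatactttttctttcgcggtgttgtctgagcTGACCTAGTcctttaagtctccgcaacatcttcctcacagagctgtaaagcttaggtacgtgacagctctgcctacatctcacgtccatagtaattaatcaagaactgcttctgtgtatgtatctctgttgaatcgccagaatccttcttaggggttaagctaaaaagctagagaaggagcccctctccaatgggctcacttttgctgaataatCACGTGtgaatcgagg
Ciart: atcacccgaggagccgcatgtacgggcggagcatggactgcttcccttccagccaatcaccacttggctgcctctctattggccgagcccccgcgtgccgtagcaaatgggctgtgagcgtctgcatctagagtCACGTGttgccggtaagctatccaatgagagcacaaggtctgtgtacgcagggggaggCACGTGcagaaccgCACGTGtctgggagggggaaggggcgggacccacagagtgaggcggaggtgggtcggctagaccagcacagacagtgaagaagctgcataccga
Per3: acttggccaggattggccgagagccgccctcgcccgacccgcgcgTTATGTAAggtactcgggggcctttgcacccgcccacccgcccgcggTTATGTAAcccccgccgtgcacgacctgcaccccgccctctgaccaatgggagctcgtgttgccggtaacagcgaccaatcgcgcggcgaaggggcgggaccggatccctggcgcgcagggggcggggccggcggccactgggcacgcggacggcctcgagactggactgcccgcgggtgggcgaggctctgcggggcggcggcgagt
Among all genes, the matches were counted on both strands, and none of the motifs holds another. Nominal and tested genes were counted once if any of their promoters held the motif. The figures for all promoters count single promoters, so the 2 units differ. Counted from the start, the capitals begin at position 29 in Arntl, -12 in Nfil3, -65 in Leo1, -180 (ROR element) and 35 (E-box) in Cdkn2c, -116, -58 and -44 in Ciart, and -205 and -158 in Per3. The ROR element was in the promoters of 10 of 712 nominal genes with a RefSeq promoter (1.40%), in 49 of 9353 tested genes (0.524%) and in 217 of all 32851 promoters of that length (0.661%). By window, it was in 5 of 270 nominal genes with a promoter between ZT 19 and 23 (1.85%), 3 of 72 between ZT 3 and 7 (4.17%), 1 of 164 between ZT 7 and 11, 1 of 32 between ZT 15 and 19 and none in the other windows. The E-box was in 13.5% of nominal genes, 11.9% of tested genes and 7.15% of all single promoters. Its share in nominal genes lay between 12.6% and 15.6% in every window. The D-box was in 1.97% of nominal genes, 1.89% of tested genes and 2.32% of all single promoters. It was in 3 of 55 nominal genes with a promoter that peaked between ZT 11 and 15 (5.45%). A match describes letters in a window and not binding.

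Outside the clock lists 4 genes were called. Slc16a1, which encodes the lactate and pyruvate transporter MCT1, had 20.9, 13.8, 7.55, 8.31, 17.0, 23.4 and 21.2 FPKM. It was low at ZT 9 and 13 like Arntl, with a peak at ZT 22.3 ± 0.28 h and an amplitude of 0.80 ± 0.06 (limma, adjusted p = 0.0215). Ypel2 had 9.67, 4.70, 4.04, 4.35, 7.42, 11.6 and 9.67 FPKM. Its pools from ZT 5 to 13 were the low ones, and its peak fell at ZT 21.7 ± 0.31 h with an amplitude of 0.72 ± 0.06 (limma, adjusted p = 0.0366). Tfec, a transcription factor related to MITF and TFEB, lay between 3.92 (ZT 9) and 8.68 FPKM (ZT 21), with a peak at ZT 21.2 ± 0.29 h (amplitude 0.49 ± 0.04, adjusted p = 0.0366 by limma). Snord32a, a small nucleolar RNA gene, had 0.270, 0.603, 1.34, 2.24, 1.76, 0.983 and 0.310 FPKM. It peaked soon after lights off, at ZT 13.9 ± 0.31 h (amplitude 0.65 ± 0.05, limma adjusted p = 0.0215). Its level lies near the floor of 1 FPKM, where a value rests on few fragments. Without ZT 9, and likewise without ZT 1, 13 or 25, none of these 4 was called. In the fit without ZT 9 all 4 kept an unadjusted p of 0.000387 or lower by limma and a peak in the same window.

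The late-night window, from ZT 19 to 23, held the largest number of nominal genes. Besides Arntl, Slc16a1, Tfec and Ypel2 it included Leo1, a subunit of the PAF1 transcription complex, with 4.29, 3.38, 2.46, 2.75, 4.14, 4.85 and 4.83 FPKM (peak ZT 21.9, amplitude 0.40 ± 0.05). Gatm, the first enzyme of creatine synthesis, was lowest at 159 FPKM at ZT 9 and highest at 248 at ZT 21. Acot1, a thioesterase of fatty acyl-CoA, ranged from 7.02 at ZT 13 to 14.9 at ZT 21. Hpgd, which inactivates prostaglandins, ranged from 6.84 at ZT 9 to 11.2 at ZT 17 (peak ZT 21.8, amplitude 0.29 ± 0.07), and it was not nominal without ZT 9, the pool of its minimum (unadjusted p = 0.0746 by limma). G6pc, the last enzyme of glucose release, had 216, 145, 151, 215, 324, 292 and 298 FPKM, with its low pools at ZT 5 and 9 and a peak at ZT 19.5 ± 0.55 h. These genes were nominal, and none passed the adjusted threshold.

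Between ZT 23 and 3 the genes of lowest p after Npas2, at an amplitude of at least 0.3, were Cluh, Rtl6, Rdh10 and Avpr1a. Cluh, an RNA-binding protein of transcripts for mitochondrial proteins, was lowest at 29.5 FPKM at ZT 9 and highest at 46.1 at ZT 25. Rdh10, which makes retinaldehyde from retinol, had 20.8, 17.2, 10.9, 10.9, 15.6, 18.6 and 18.8 FPKM (peak ZT 23.5, amplitude 0.43 ± 0.06). Avpr1a, the V1a receptor of vasopressin, had 3.25, 2.80, 1.71, 1.40, 2.49, 3.16 and 3.18 FPKM (peak ZT 23.6, amplitude 0.40 ± 0.05). In all of these the low pools were ZT 9 and 13, as in Arntl. Pdk4, a kinase that keeps pyruvate from the citric acid cycle, peaked at ZT 23, on the border to the window before, and was at 7.22 (ZT 13) and 29.2 FPKM (ZT 1). Faah, which degrades anandamide and other fatty acid amides, was at 7.47 at ZT 13 and 12.4 at ZT 1. The lowest unadjusted p among the 6 genes after Npas2 was 0.000276 (Rtl6), with limma's adjusted p at 0.214.

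In the morning window from ZT 3 to 7, genes with an amplitude of at least 0.3 were ranked by p. Apart from genes known only by a model number, the lowest p belonged to Cyp4a32, Cdkn2c, Tmem86a, Hspe1-ps6 and Cox7a1. Cyp4a32, a fatty acid hydroxylase of a family of near-identical genes whose reads may be shared, had 3.96, 4.99, 5.56, 2.50, 2.55, 2.79 and 3.65 FPKM (peak ZT 5.9 ± 0.64 h, amplitude 0.46 ± 0.09). Cdkn2c, an inhibitor of cyclin-dependent kinases, lay between 6.80 and 7.23 FPKM in the first 3 pools and between 4.53 and 5.86 in the rest. Tmem86a, a hydrolase of ether lipids, was between 20.4 and 22.8 in the first 3 pools and between 10.3 and 14.0 afterwards (peak ZT 6.3, amplitude 0.52 ± 0.11). At ZT 25 Tmem86a was at 13.3 FPKM against 20.7 at ZT 1, a gap of -0.60 on the log2 scale. Cox7a1, a respiratory chain subunit known from muscle and brown fat, was highest at 29.3 FPKM at ZT 5, the pool with the highest fat markers. Hspe1-ps6, a pseudogene whose reads may come from its parent, ranged from 1.07 to 4.34 FPKM.

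From ZT 7 to 11, alongside Dbp, Nr1d1, Nr1d2, Ciart and Tef, the nominal genes included Cyp24a1, which breaks down active vitamin D. It had 12.4, 32.2, 35.8, 20.4, 10.1, 12.2 and 7.78 FPKM, with high pools at ZT 5 and 9 and a peak at ZT 8.7 ± 0.70 h (amplitude 0.98 ± 0.19). Igfbp1, a binding protein of insulin-like growth factors that insulin lowers, ranged from 1.27 at ZT 17 to 4.94 at ZT 9. Cirbp, an RNA-binding protein that low body temperature raises, ranged from 10.6 at ZT 21 to 22.2 at ZT 9, and Mt1, a metallothionein, from 19.7 at ZT 21 to 39.2 at ZT 9. Without the ZT 9 pool, which carries the adrenal genes, Cyp24a1 and Igfbp1 kept an unadjusted p of 0.0358 and 0.0447 by limma, and Cirbp (0.0719) and Mt1 (0.0566) did not stay nominal. The part of adrenal RNA in the afternoon peaks was not tested. Tmem106a was nominal with and without ZT 9 (37.3, 42.2, 55.1, 53.2, 40.6, 33.9 and 35.4 FPKM, peak ZT 10.5, amplitude 0.35 ± 0.04).

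Around lights off, between ZT 11 and 15, genes with an amplitude of at least 0.3 were again ranked by p. Besides Snord32a and Per3, the lowest p belonged to Alms1-ps2, Tnfaip8 and Wee1. Alms1-ps2, a pseudogene that may share reads with Alms1, had 2.19, 2.83, 6.17, 6.27, 3.87, 2.35 and 2.40 FPKM (peak ZT 11.7 ± 0.41 h, amplitude 0.64 ± 0.06). It missed the adjusted threshold (limma, adjusted p = 0.0855) and passed it without ZT 5. Tnfaip8, a regulator of cell survival, had 30.1, 41.9, 54.7, 64.0, 46.5, 39.9 and 31.7 FPKM (peak ZT 12.3, amplitude 0.47 ± 0.05). Wee1, a kinase that holds back mitosis and a known clock output, had 4.0, 4.27, 5.53, 8.32, 7.11, 5.16 and 4.70 FPKM (peak ZT 14.5, amplitude 0.40 ± 0.05). All 3 were highest at ZT 13 and low at both ends of the series. Nr1h4, which encodes the bile acid receptor FXR, ranged from 56.4 at ZT 5 to 93.5 at ZT 13 (unadjusted p = 0.0108 by limma).

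The night window from ZT 15 to 19 held the fewest nominal genes. Among those with an amplitude of at least 0.3, the glucocorticoid target Sgk1 had the lowest p. Sgk1, a kinase that raises sodium reabsorption through the epithelial sodium channel, had 18.3, 14.8, 19.9, 29.5, 44.0, 31.4 and 25.1 FPKM. Its maximum at ZT 17 was 2.97-fold its minimum at ZT 5, with a peak at ZT 17.4 ± 0.44 h and an amplitude of 0.68 ± 0.09 (unadjusted p = 0.000254, adjusted p = 0.213 by limma). Tsc22d3, which encodes the steroid-induced protein GILZ, had 10.6, 9.10, 11.5, 20.7, 18.8, 17.3 and 14.5 FPKM, low in the first 3 pools and high in the 3 dark-phase pools (peak ZT 16.8 ± 0.68 h). Far1os, a noncoding transcript, and the microRNA genes Mir6395 and Mir7061 were the other genes of lowest p at that amplitude. All 3 stayed below 3 FPKM, and Mir7061 was listed at 0 at ZT 5.

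Lists of genes with a shared role were then read by the window of their fitted peaks, whether nominal or not. Of 24 tested clock-controlled kidney outputs 13 were nominal (54.2%, against 8.54% of all tested genes), 5 of them between ZT 19 and 23 and 4 between ZT 11 and 15. These lists were drawn up with earlier results of these data known, so the counts are a description. Glucocorticoid receptor targets had 6 nominal genes of 16 (37.5%), and 5 and 6 of the 16 peaked in the windows from ZT 11 to 15 and from ZT 15 to 19, which hold 8.21% and 10.4% of all tested genes. Besides Sgk1, Tsc22d3 and Per1 they included Angptl4, an inhibitor of lipoprotein lipase, which was at 8.20 (ZT 13) and 20.2 FPKM (ZT 17). The collecting duct and aldosterone list had 7 nominal genes of 27 (25.9%). That list shares Sgk1, Tsc22d3, Per1 and Avpr1a with the lists above.

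**Figure D5:**
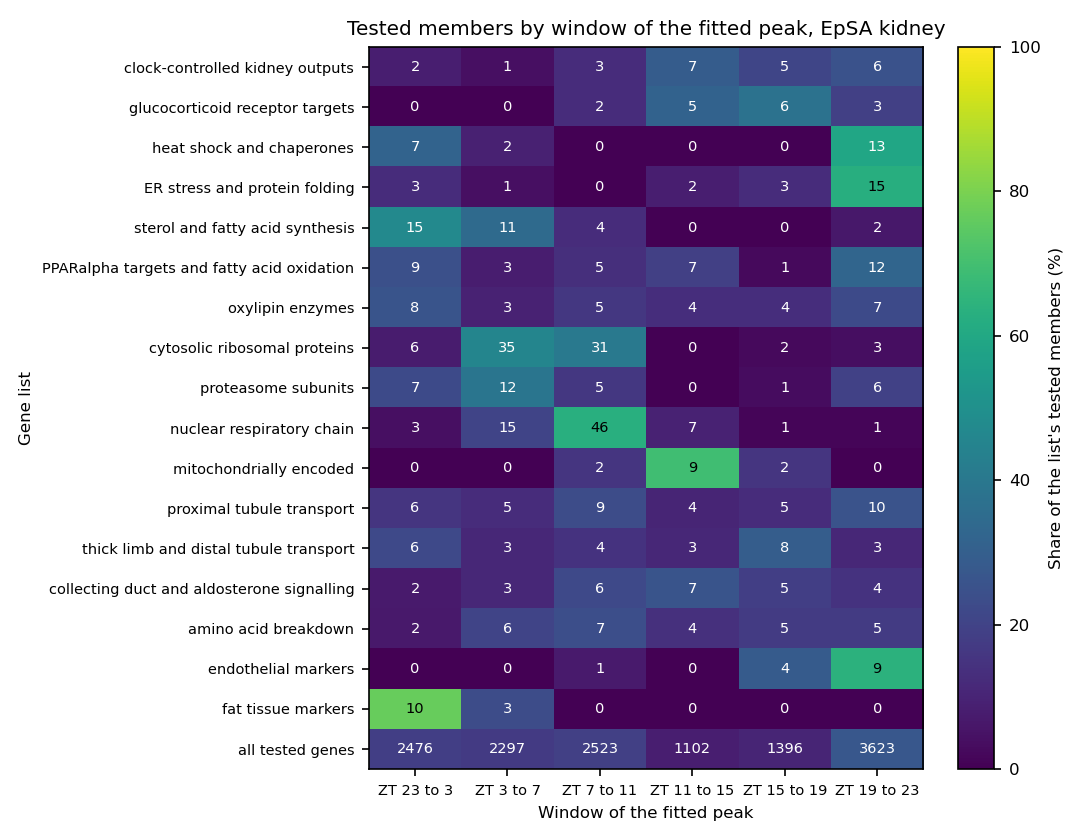
Share (%, colour) and number (printed) of the tested members of 17 gene lists whose fitted peak lies in each window of 4 h in EpSA kidney, nominal or not, with all tested genes in the last row. Heat shock genes gather between ZT 19 and 3, ribosomal protein genes between ZT 3 and 11, and nuclear respiratory chain genes between ZT 7 and 11.

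Protein folding genes had their fitted peaks from late night to dawn. Of 22 heat shock and chaperone genes, 13 peaked between ZT 19 and 23 and 7 between ZT 23 and 3, and none between ZT 7 and 19. These windows of late night and dawn held 27.0% and 18.5% of all tested genes. The heat shock genes' median amplitude was 0.280, against 0.0883 for all tested genes. Nominal were 4 of the 22 (18.2%, against 8.54% of all tested genes): the HSP90 genes Hsp90aa1 and Hsp90ab1 and their cochaperones Ahsa1 and Fkbp4. Hsp90aa1 had 86.1, 91.6, 52.9, 51.4, 86.7, 79.0 and 90.7 FPKM. The pools at ZT 9 and 13 were the low ones, and the other 5 lay close together. None of the 22 stayed nominal without ZT 9, although 11 and 9 of them then peaked in the same windows. Genes of endoplasmic reticulum stress and folding had 15 of 24 fitted peaks between ZT 19 and 23 and 3 nominal members (12.5%): Pdia6, Dnajc3 and Herpud1. Pdia6, a disulfide isomerase, and Dnajc3, a cochaperone, peaked at ZT 23.5 and 22.9, whereas Herpud1, which helps degrade misfolded proteins, peaked at ZT 14.5.

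Ribosomal and respiratory chain genes had fitted peaks in the light phase with amplitudes no larger than those of other genes. Of all tested genes 8.54% were nominal. Fitted peaks of all tested genes lay between ZT 3 and 7 in 17.1%, between ZT 7 and 11 in 18.8% and between ZT 11 and 15 in 8.21%. Of 77 cytosolic ribosomal protein genes, 35 peaked between ZT 3 and 7 and 31 between ZT 7 and 11, and 2 were nominal (2.60%): Rpl17 and Rpl10a, both low in level and with many near-identical copies. Rpl17 peaked at ZT 6.1, but Rpl10a in the dark phase, at ZT 22.1, and Rpl10a was not nominal without ZT 9. With pool medians set equal, 22 and 47 of the 77 lay in these windows, and without ZT 9 46 and 11. Of 73 nuclear genes of the respiratory chain, 46 peaked between ZT 7 and 11 (33 without ZT 9), and none was nominal. The median amplitudes of both lists, 0.0842 and 0.0709, lay below the 0.0883 of all tested genes. The 13 genes of the mitochondrial genome peaked later, 9 of them between ZT 11 and 15, and none was nominal. Among 31 proteasome subunits 1 was nominal, Psmd11, which lay between 8.67 (ZT 9) and 12.3 FPKM (ZT 25). Gene length moved with these windows: the median exon length of all tested genes that peaked between ZT 7 and 11 was 2856 bases, and 5305 for those between ZT 19 and 23. Its part in the order of the lists was not tested.

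Lipid synthesis genes had their fitted peaks around dawn. Of 32 sterol and fatty acid synthesis genes, 15 peaked between ZT 23 and 3 and 11 between ZT 3 and 7. These windows held 18.5% and 17.1% of all tested genes. Without ZT 9 they held 4 and 19 of the 32 genes. In the full fit 3 of the 32 were nominal (9.38%, near the 8.54% of all tested genes). Fasn, the fatty acid synthase, had 15.3, 14.2, 3.85, 4.50, 6.40, 5.85 and 10.2 FPKM, high at ZT 1, 5 and 25, with a peak at ZT 1.8 ± 1.1 h and an amplitude of 0.72 ± 0.19 (unadjusted p = 0.0193 by limma). Acaca, which supplies its malonyl-CoA, peaked at ZT 2.4 (1.04 to 2.21 FPKM), and Acly, which supplies acetyl-CoA, at ZT 23.2 (25.0 to 37.6 FPKM). Fat tissue markers had fitted peaks around the same hours: all 13 lay between ZT 23 and 7, and Ucp1 and Cidea were nominal. The marker sum was 302 FPKM at ZT 1 and 301 at ZT 17. At these 2 times Fasn was at 15.3 and 6.40 FPKM, Acaca at 2.21 and 1.36, and Acly at 33.2 and 32.6. Ucp1, the uncoupling protein of brown fat, had 45.0, 90.0, 6.56, 3.88, 8.01, 9.80 and 15.4 FPKM, and Cidea, a lipid droplet protein, ranged from 3.54 at ZT 13 to 30.6 at ZT 5. Adipoq, the adipokine that defines fat cells, was at 28.3 (ZT 5) and 6.19 FPKM (ZT 13), so fat cell transcripts were present in every pool. The part of fat tissue in the rhythm of Fasn and Acaca was not tested. In whole tissue, fewer cells of a type and less RNA per cell cannot be told apart.

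Fatty acid oxidation genes showed no common phase, with 4 nominal genes of 37 (10.8%, near the 8.54% of all tested genes): Pdk4, Angptl4, Acot1 and Acaa1b. Enzymes of oxylipins, the oxidised fatty acid signals, had 2 nominal genes of 31 (6.45%), below that share. These were Faah and Hpgd, both described above, and the other 29 were spread over all 6 windows. Antioxidant genes had 3 of 27 (11.1%), also near it: Nfe2l2, which encodes the regulator NRF2 (28.2 FPKM at ZT 9, 35.2 at ZT 21), Gsta3 and Gsr. Amino acid breakdown had 5 of 29 (17.2%), among them Gatm, Asl of the urea cycle (peak ZT 11.7) and Hao2, an oxidase of hydroxy acids at 142 (ZT 1) and 85.0 FPKM (ZT 13).

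Along the nephron, 6 of 39 proximal tubule transport genes were nominal (15.4%, against 8.54% of all tested genes). The fitted peaks of the 39 spread over all 6 windows, and those of the 6 nominal genes over 4 windows. After Slc16a1 the nominal genes included Slc16a10, a transporter of aromatic amino acids (4.93 FPKM at ZT 9, 6.69 at ZT 21), Slc7a9, the light subunit of the cystine transporter (42.2 at ZT 1, 58.0 at ZT 9), and Slc22a12, the urate transporter URAT1 (340.2 at ZT 13, 450.3 at ZT 25). In the thick limb and distal tubule 2 of 27 were nominal (7.41%, near the share of all tested genes). Cldn10, a claudin of the sodium-permeable junctions, had 94.4, 80.6, 68.4, 60.5, 68.6, 81.2 and 80.6 FPKM (peak ZT 0.93, amplitude 0.25 ± 0.05), and Pvalb, a marker of the early distal tubule, peaked at ZT 12.0.

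No nominal gene was found among 32 interferon and antigen presentation genes, 13 tested macrophage and immune cell markers, 13 tubular injury genes, 8 podocyte markers or 19 genes of the amino acid response. Of all tested genes 8.54% were nominal, and at that share lists of this size would hold few. Matrix and fibrosis had 1 of 20, the growth factor Ccn2 (20.6 FPKM at ZT 9, 30.5 at ZT 13). Endothelial markers had 1 of 14, the angiopoietin receptor gene Tek, although 9 of the 14 peaked between ZT 19 and 23. That window held 27.0% of all tested genes. With 4 residual degrees of freedom, a gene with a p above the threshold is not shown to be flat.

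Many nominal calls of single genes were lost when 1 pool was left out. Of the 86 nominal genes among the 91 that the naming rule picked, 43 were nominal under each other pseudocount, scaling and variance model tried at this filter and period and with any 1 time left out. They include all nominal clock genes except Per2 and Cry1, the 4 other called genes, and Sgk1, Tsc22d3, Cyp24a1, G6pc, Gatm, Acot1, Faah, Rdh10, Avpr1a, Cldn10, Slc16a10 and Psmd11. Between 59 (without ZT 9) and 74 (without ZT 1 or ZT 5) of the 86 were nominal with 1 time left out. Without ZT 9 the genes described above that were not nominal were Acaa1b, Acly, Ahsa1, Angptl4, Asl, Ccn2, Cirbp, Dnajc3, Fkbp4, Gsr, Gsta3, Hpgd, Hsp90aa1, Hsp90ab1, Mt1, Nfe2l2, Pdia6, Pvalb, Rpl10a, Slc7a9 and Tek. Without ZT 13 they were 12 of these, namely Acaa1b, Acly, Ahsa1, Asl, Dnajc3, Fkbp4, Gsr, Hsp90aa1, Hsp90ab1, Pdia6, Rpl10a and Slc7a9, and also Acaca, Cidea, Hao2, Herpud1, Nr1h4, Per2, Slc22a12 and Ucp1. Fasn was not nominal without ZT 1, nor Cox7a1 without ZT 5.

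Nominal genes were less often coding genes than tested genes were: 76.6% against 86.4% of those with an annotation. Long noncoding and other genes, those that are not coding genes, pseudogenes or short RNA genes, made up 12.7% of the nominal set and 6.41% of the tested set. Their share was highest between ZT 3 and 7, at 21.4% of nominal genes, and lowest between ZT 23 and 3, at 6.15%. The median level was 4.60 FPKM in nominal genes and 5.49 in all tested genes. No test was made of these shares.

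The chow pools gave the same curves for comparison, and the difference of rhythm was tested as the interaction of diet with the cosine and sine over the 14 pools of both diets. Of 13344 genes, 0 were called at an adjusted p under 0.05 (0%) by limma, and 618 (4.63%) had an unadjusted p under 0.05. That share lies below the 5% of evenly spread p-values. Among the 13417 genes of the EpSA set, 1399 were nominal in chow and 317 in both diets, which is 27.7% of the EpSA set and 22.7% of the chow set. In these 317 the EpSA peak was earlier in 240, and the median of EpSA minus chow was -1.50 h (quartiles -2.74 and -0.07 h). Median amplitudes were 0.276 in EpSA and 0.270 in chow. The clock genes shared this order, with 15 of 18 fitted peaks earlier in EpSA. All these genes are read from the same 14 pools, so they are not replicates of a diet. The counts describe genes, and the shift was not tested across them.

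Single genes had low p-values for the difference, none of which passed the adjustment (limma, adjusted p = 0.82 for each gene named here). Slc16a1 peaked at ZT 22.3 in EpSA and at ZT 1.2 in chow with amplitudes of 0.80 and 0.79 (unadjusted p = 0.000145). Tef peaked at ZT 10.7 in EpSA and 13.4 in chow, Dbp at 9.9 and 12.1, and Nfil3 at 20.1 and 23.4, each with an unadjusted p of 0.00129 or lower. For Sgk1 the amplitude was 0.68 ± 0.09 in EpSA and 0.09 ± 0.09 in chow (unadjusted p = 0.00187). Its chow pools were at 22.2, 18.7, 16.2, 18.6, 20.2, 18.8 and 16.0 FPKM, with the highest at ZT 1. Hpgd peaked at ZT 21.8 in EpSA and at ZT 2.7 in chow (unadjusted p = 0.005), and Cyp4a32 at ZT 5.9 and 12.2 (0.00123).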

How the data were processed

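Per the labels' protocols, kidney RNA was sequenced in pairs of 150-base reads. How reads were aligned, counted and normalized, and on which build, is not given in the sources used here. For each diet the authors deposited 1 table with 7 columns of expression. The EpSA table carries another abbreviation in its headers and was assigned to EpSA because the labels of those samples name that file. The deposited values are taken as FPKM, which the headers do not name, from their sums per column (405720 to 430135 in EpSA) and their dependence on gene length. The last decimal is 0, 3 or 7 in all of them, as in means of 3 values, so a column is taken for the authors' mean over the mice of 1 time. The library depth and the spread between mice are therefore unknown. The deposited p-values, q-values and phases, as well as the ratio of amplitude to baseline, were not used.

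Genes with a mean of at least 1 over the EpSA columns were fitted on log2(FPKM + 1), a scale computed here with a pseudocount of 1 that understates changes of low genes. limma 3.58.1 in R 4.3.3 gave the moderated F test of cosine and sine (4 residual degrees of freedom; 8 for the difference between diets, tested on 13344 genes with a mean of at least 1 over both). The Benjamini-Hochberg adjustment was used at 0.05. The scripts were tested on simulated data. The members and the 39 gene lists were chosen with earlier results of these data known. The text names the tested genes of the clock lists, all called genes, in each window the 5 of lowest p with an amplitude of at least 0.3, the 10 largest nominal amplitudes, and up to 4 nominal members per list, 91 genes in all. The other genes of the rule stand in the counts, and some that it picks are not reported here. Model-number genes were passed over (6 between ZT 3 and 7, and 4 among the largest amplitudes), and members of the adrenal and fat lists were added after their values were seen. A symbol was found for 52073 identifiers and none for 4618. Gene types and lengths come from a GENCODE annotation of GRCm38. RefSeq promoters (GRCm38.p6) matched 69 of the 91 genes. The alternatives tried were another pseudocount, other filters, scalings, variance models and periods, and each time left out. Python 3.11.15, numpy 2.4.6, pandas 2.3.3 and matplotlib 3.10.9 served for promoters and plots.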

Additional observations from a re-analysis of the deposited data

Results flagged for a closer look

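The summed level of 13 adrenal genes in the ZT 9 pool of EpSA kidney was 157.869 FPKM, while the other 6 pools lay between 20.6 and 25.0. Fdx1 alone made up most of the sum in those 6 pools. The gap to the nearest pool was 0.968 of the whole range. Of 11 pool quantities examined in this way 1 stood out, and chance alone sets apart about 1 group in 20. Members of the adrenal list were added after their values were seen, so that rate cannot be applied to it. The part of adrenal RNA in the rhythms that peak or dip at ZT 9 was not tested beyond leaving that pool out.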

How the results depend on the processing

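The 7 genes called at the adjusted threshold became 3 with a pseudocount of 0.1, 1 with no filter on low values, 4 with a mean of at least 5, 4 with pool medians set equal, 5 with quantile normalization, 5 with limma's intensity trend and 0 with a plain F test per gene. With 1 time left out the count lay between 2 and 5, and Arntl and Dbp were called each time. A period of 12 h or 20 h gave 0 calls, and 28 h gave 5. The 1146 nominal genes became 2762 with no filter (36319 genes tested), 634 with a mean of at least 5 (7132 tested) and 535 at a period of 12 h, and lay between 560 (without ZT 9) and 1718 (without ZT 1) with 1 time left out. The share of nominal peaks in the light phase, 45.8%, became 49.1% with no filter, 54.4% with pool medians set equal and 50.3% with quantile normalization, and lay between 41.3% (without ZT 5) and 55.0% (without ZT 17) with 1 time left out. The cause of these moves was not tested, except that the filters change the number of genes tested. The difference of rhythm between the diets gave 0 calls in every setting run for it, with 361 to 1798 genes at an unadjusted p under 0.05. Of the 86 nominal genes among the 91 picked by the naming rule, 74 were nominal with a pseudocount of 0.1, 68 with no filter, 80 with pool medians set equal, 84 with quantile normalization, 55 with a plain F test, 85 with limma's trend, and 59 (without ZT 9) to 74 with 1 time left out; with a mean of at least 5, all 66 still tested were. Periods of 12, 20 and 28 h kept 0, 54 and 79. Genes that newly passed the adjusted threshold were Alms1-ps2 without ZT 5 and Nfil3, Nr1d1 and Nr1d2 at 28 h. At the 24 h period and the filter used, the peak of the 7 called genes moved by at most 0.645 h (Npas2 without ZT 17). No paired analysis was possible because each column is a mean over the mice of a time and its values cannot be split by the sample numbers that the labels repeat at each time. Library depth is unknown, and the 7 pools limit the precision.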
